A study of Homo sapiens with 10 samples.

Results

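DKK1 and 9 target genes of the Wnt pathway were followed in HCT116 cells, a human colorectal carcinoma line, with and without CD276 (B7-H3), a membrane protein of the B7 family. The 10 genes were chosen by name, as DKK1, AXIN2, LGR5, ASCL2, NKD1, RNF43, ZNRF3, TCF7, LEF1 and MYC, and all 10 were found among the 58050 gene identifiers of the expression table. Earlier results of these data were known when the genes were chosen, so their counts set beside all genes are a description. HCT116-WT cells were compared with HCT116-CD276KO cells, in 5 cultures each, all kept in McCoy's 5A medium with fetal calf serum. The knockout was made with Cas9 ribonucleoprotein and a guide against CD276, and a single cell clone was sorted by flow cytometry, so that the 5 HCT116-CD276KO libraries are cultures of 1 clone. The treatment text that all samples share names a scrambled guide as control, and whether the HCT116-WT cultures received it is not given in the sources used here. Any difference reported here separates that clone from HCT116-WT cells, and the p-values measure the spread between cultures.

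In the canonical Wnt pathway, secreted Wnt proteins bind Frizzled receptors and the co-receptors LRP5 and LRP6 and so keep β-catenin from being destroyed by a complex of AXIN, APC, GSK3 and casein kinase 1. Stable β-catenin enters the nucleus, binds DNA through TCF and LEF proteins and switches on target genes, many of which encode brakes on the same pathway. The pathway maintains stem cells of the intestinal crypt and is switched on by mutation in most colorectal tumors. HCT116 cells carry a stabilizing mutation of CTNNB1, the gene of β-catenin, beside intact APC. DKK1, which encodes a secreted antagonist that binds LRP5 and LRP6, was of interest since DKK-1 was among the soluble factors that the study measured in supernatants of spheroid cocultures. The study's cytokine array gave a lower DKK-1 signal where the spheroids lacked CD276. That was secreted protein from cocultures with macrophages, while the RNA described here came from the tumor cells alone, kept in culture flasks.

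The TCF and LEF proteins bind a core motif, here searched as CTTTGA or CTTTGT on both strands. The search covered a set of windows of the 250 bases before start sites from RefSeq (GRCh38.p14). Windows were read for 4 of the 10 genes, DKK1, RNF43, TCF7 and LEF1, with 6 start sites in all. For the other genes no window was read, which does not show that this set or RefSeq lists no start site for them. The windows with a match follow, 5′ to 3′ on the strand of the gene and with the matches in capitals, to let the region before DKK1 be read beside those before RNF43 and TCF7.
DKK1, chr10:52314031-52314280, plus strand: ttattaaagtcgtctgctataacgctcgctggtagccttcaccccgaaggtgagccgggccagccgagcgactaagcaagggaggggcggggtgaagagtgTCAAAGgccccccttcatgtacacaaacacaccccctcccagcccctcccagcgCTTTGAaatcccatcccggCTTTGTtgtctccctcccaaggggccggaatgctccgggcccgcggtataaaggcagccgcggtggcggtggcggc
RNF43, outer start site, chr17:58417596-58417784, minus strand: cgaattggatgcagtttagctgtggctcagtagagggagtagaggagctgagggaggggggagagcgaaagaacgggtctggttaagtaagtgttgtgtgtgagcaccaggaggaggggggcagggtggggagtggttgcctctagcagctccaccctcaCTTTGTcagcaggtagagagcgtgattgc
RNF43, inner start site, chr17:58402722-58402971, minus strand: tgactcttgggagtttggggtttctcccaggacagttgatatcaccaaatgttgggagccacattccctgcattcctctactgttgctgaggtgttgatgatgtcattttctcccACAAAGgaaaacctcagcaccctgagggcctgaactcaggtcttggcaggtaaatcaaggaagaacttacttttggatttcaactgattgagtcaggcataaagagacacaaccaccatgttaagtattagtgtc
TCF7, inner start site, chr5:134123368-134123617, plus strand: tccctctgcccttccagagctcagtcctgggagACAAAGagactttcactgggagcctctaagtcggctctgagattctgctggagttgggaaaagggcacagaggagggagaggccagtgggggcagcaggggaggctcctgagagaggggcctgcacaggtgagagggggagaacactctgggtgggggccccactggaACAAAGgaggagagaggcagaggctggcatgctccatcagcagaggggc
The outer RNF43 window is shown over 189 of its bases, without a stretch annotated as transcribed. The DKK1 window held 3 matches, at positions -149 to -144, -95 to -90 and -76 to -71 from the start site, the first of them on the opposite strand. Each RNF43 window held 1 match and the inner TCF7 window 2, while the outer TCF7 window and the LEF1 window held 0. Of all 35116 windows of this length, 22.8% held at least 1 match (11.2% for CTTTGA and 13.7% for CTTTGT) and 0.584% held 3 or more. The match is of letters and is no evidence of binding. In GENCODE 44 the DKK1 window also lies in exons of PRKG1-AS1, a long non-coding RNA on the opposite strand. The whole LEF1 window lies in annotated exons of LEF1 itself, and parts of the outer TCF7 window lie in exons of TCF7.

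CD276 itself, the edited gene, was measured at 49.30, 42.02, 53.61, 38.08 and 43.27 TPM in HCT116-WT replicates 1 to 5, while HCT116-CD276KO replicates 1 to 5 had 4.40, 7.42, 5.79, 4.79 and 4.89 TPM. TPM are transcript levels per transcript length, scaled so that every library has the same total, and levels of different genes can be set side by side. CD276 fell to 12.1% of its HCT116-WT mean (log2 fold change -2.85, SE 0.13, adjusted p = 1.39e-07 in limma). Here and below, log2 fold changes are of TPM + 1, HCT116-CD276KO minus HCT116-WT, and adjusted p-values are from limma with Benjamini-Hochberg adjustment over the 13581 genes whose mean reached 1 TPM. The pseudocount makes the fold change of low genes smaller than the ratio of their TPM. TPM keep no read counts, so the depth of each library is unknown. A gene passed the test at an adjusted p under 0.05.

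Among all genes tested, 4.87% passed, with 4.09% (556) lower and 0.781% (106) higher in HCT116-CD276KO cells. This split depended on the scaling between libraries, at 386 lower and 197 higher with median-of-ratios factors, 385 and 253 with quantile normalization, and 757 and 530 (9.55% of genes in all) after a correction of each library for its trend with transcript length and GC. Long transcripts were low in HCT116-CD276KO replicates 2 and 3, where the deviation of a gene from its mean level correlated with transcript length at Spearman's rho of -0.517 and -0.489 (description over 13472 genes, which are not independent). The other 8 libraries lay between -0.094 and 0.425. Values without these 2 libraries, a setting chosen after seeing the data, are given where they move a result. Epithelial markers fitted the label, as 5 of 6 were expressed (VIL1 lay under 1 TPM), with a summed level of 4172.58 to 4941.93 TPM in HCT116-WT and 3306.28 to 3773.27 TPM in HCT116-CD276KO libraries. All 5 (EPCAM, CDH1, KRT8, KRT18 and KRT19) passed as lower in the clone, CDH1 by 2-fold or more, and EPCAM and KRT19 no longer passed without HCT116-CD276KO replicates 2 and 3 (adjusted p = 0.110 and 0.0779 in limma). Their part in the results below was not tested. Of the markers of other cell types, COL1A1 and CD68 alone reached a mean of 1 TPM among 6 fibroblast, 6 leukocyte and 4 endothelial markers, and LUM and MS4A1 were listed at 0 in every library. In HCT116-WT and HCT116-CD276KO libraries, respectively, the fibroblast markers summed to 6.02 to 8.99 and 4.54 to 7.51 TPM and the leukocyte markers to 9.16 to 15.04 and 6.15 to 12.98 TPM. The endothelial markers summed to at most 0.65 TPM.

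DKK1 was the most abundant of the 10 genes and did not differ measurably between the groups, MYC came next and did not pass either, and the 2 genes that passed, RNF43 and ZNRF3, were both lower in HCT116-CD276KO cells. AXIN2, NKD1 and TCF7 did not pass, and LGR5, LEF1 and ASCL2 were at or near 0 TPM. So 2 of the 7 genes above the filter of 1 TPM passed, both lower, beside 4.09% of all genes tested that passed as lower. None of the 7 passed with a change of at least 2-fold, beside 0.486% of all genes tested that did. The median log2 fold change of the 7 was -0.35 beside -0.09 over all genes tested, and 6 of 7 were below 0 beside 68.1% of all genes. These figures depended on the scaling. With median-of-ratios factors 4 of 7 were below 0 with a median of -0.27, beside 49.1% and 0.0037 for all genes, and with quantile normalization 5 of 7 with a median of -0.24, beside 48.5% and 0.0073. Without the length and GC trend 4 of 7 were below 0 with a median of -0.11, beside 49.4% and 0.0025. Without HCT116-CD276KO replicates 2 and 3 the count was 5 of 7 and the median -0.21, beside 58.3% and -0.03.

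**Figure D1:**
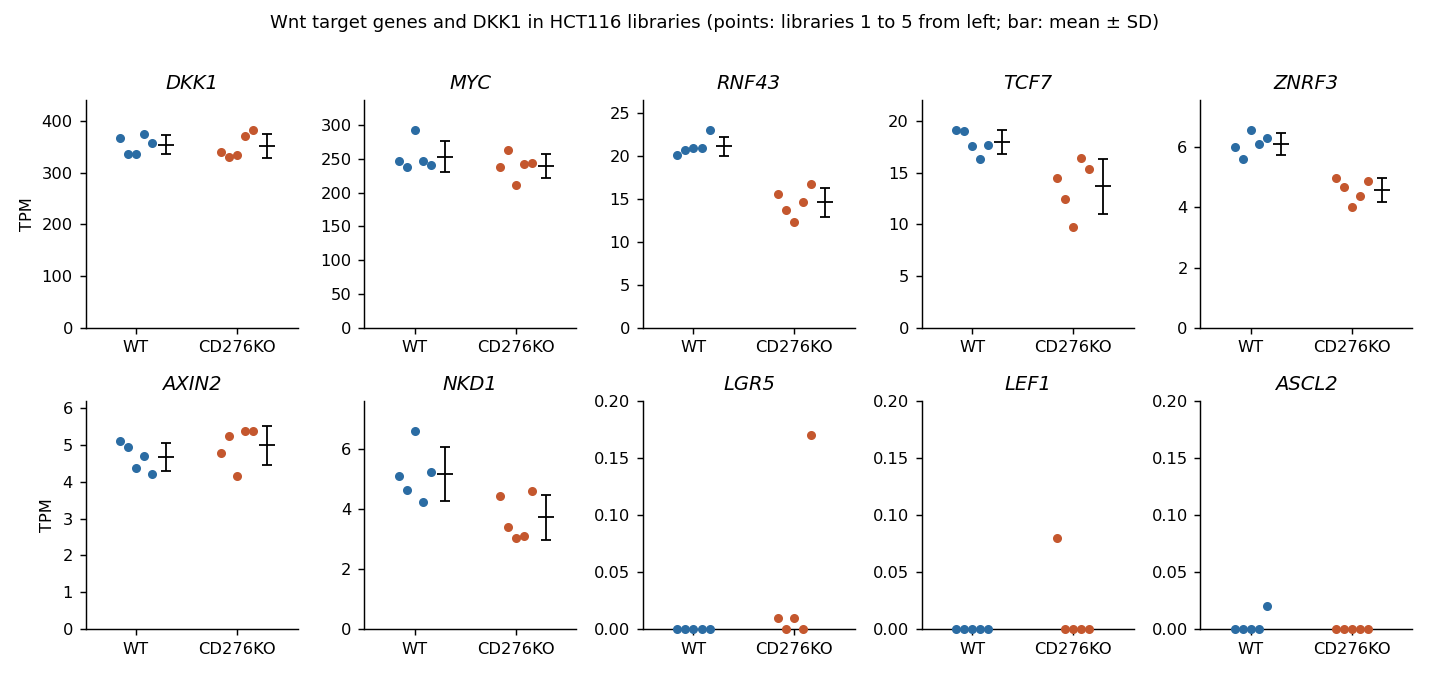
Level of each of the 10 genes in TPM (vertical axes, starting at 0) in the 5 HCT116-WT and the 5 HCT116-CD276KO libraries, 1 point per library, with the mean and SD for genes above 0.5 TPM. The points of the groups are apart for RNF43 and ZNRF3, overlap for DKK1, MYC, TCF7, AXIN2 and NKD1, and lie at or near 0 for LGR5, LEF1 and ASCL2.

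DKK1 (ENSG00000107984, chromosome 10, 52314281 to 52318042, plus strand of hg38) was measured at 367.97, 335.55, 335.96, 374.53 and 357.91 TPM in HCT116-WT replicates 1 to 5 while HCT116-CD276KO replicates 1 to 5 had 339.58, 330.38, 334.11, 371.44 and 383.12 TPM. Low and high libraries occurred in both groups, which overlapped over nearly their whole range. The mean was 354 ± 18.0 TPM (SD, n = 5) in HCT116-WT and 352 ± 23.9 TPM (SD, n = 5) in HCT116-CD276KO cells. The log2 fold change was -0.01 with a 95% interval of -0.14 to 0.12 (adjusted p = 0.919 in limma). The exact permutation test (two-sided, 5 libraries against 5) gave p = 0.865, where the smallest p it allows is 0.00794. The sign of this difference depended on the processing, with 0.09 by median-of-ratios scaling, 0.02 without the length and GC trend and 0.04 without HCT116-CD276KO replicates 2 and 3, and in none of these did it pass. By mean level DKK1 ranked 403 among the 58050 genes. Its antisense neighbor PRKG1-AS1 lay between 1.24 and 2.27 TPM, far below DKK1.

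The genes whose pattern over the 10 libraries was most like that of DKK1 were CDC37L1 (Pearson's r = 0.917 on log2(TPM + 1)), FASTKD5 (0.914), UTP3 (0.911), DDX31 (0.907) and ZNF326 (0.904). All 5 had nearly the same mean in both groups, with log2 fold changes between -0.03 and -0.01. This follows from choosing them by likeness to DKK1, which did not differ measurably. The correlations describe these 10 libraries, which share their scaling, and were chosen as the highest of 13581.

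The co-receptors that DKK1 binds were present in both groups. LRP5 had a mean of 26.2 TPM in HCT116-WT and 24.8 TPM in HCT116-CD276KO cells (log2 fold change -0.08, adjusted p = 0.578 in limma), and LRP6 had 12.4 and 10.6 TPM (-0.26, adjusted p = 0.411, and 0.06 without HCT116-CD276KO replicates 2 and 3). KREMEN1 and KREMEN2, further receptors of DKK proteins, had means of 18.0 and 15.5 TPM and of 6.97 and 7.61 TPM, with adjusted p-values of 0.407 and 0.592 in limma. These 4 genes were picked for their known binding of DKK1, after their values were seen, and none passed the test. CKAP4, another receptor reported for DKK1, is given below.

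The ubiquitin ligases RNF43 and ZNRF3 remove Frizzled receptors from the cell surface and are targets of the pathway that they restrain. RNF43 (ENSG00000108375, chromosome 17, 58353676 to 58417595, minus strand) was measured at 20.16, 20.68, 20.90, 20.87 and 23.05 TPM in HCT116-WT replicates 1 to 5 while HCT116-CD276KO replicates 1 to 5 had 15.54, 13.69, 12.26, 14.63 and 16.77 TPM. Every HCT116-CD276KO library lay below every HCT116-WT library. The mean fell from 21.1 ± 1.11 to 14.6 ± 1.72 TPM (SD, n = 5 each), to 69.0% of the HCT116-WT level. The log2 fold change was -0.51 (SE 0.08, 95% interval -0.70 to -0.33, adjusted p = 0.00502 in limma), and the two-sided exact permutation test gave p = 0.00794, the smallest it can give. RNF43 passed under each of the 19 alternative settings tried, with log2 fold changes of -0.56 to -0.36, and at -0.41 (adjusted p = 0.0174 in limma) without HCT116-CD276KO replicates 2 and 3. A read-through transcript that overlaps RNF43 on the same strand was not analysed here.

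ZNRF3 (ENSG00000183579, chromosome 22, 28883572 to 29057488, plus strand) was measured at 6, 5.60, 6.58, 6.10 and 6.29 TPM in HCT116-WT replicates 1 to 5 while HCT116-CD276KO replicates 1 to 5 had 4.96, 4.66, 4.00, 4.39 and 4.88 TPM. As for RNF43, the groups did not overlap, and this lack of overlap was seen in 6.19% of all genes tested in the lower direction and in 1.42% in the higher one. The mean fell from 6.11 ± 0.362 to 4.58 ± 0.392 TPM (SD, n = 5 each), to 74.9% of the HCT116-WT level. The log2 fold change was -0.35 (SE 0.08, adjusted p = 0.0295 in limma; exact permutation p = 0.00794). The ZNRF3 call was lost under 14 of 19 alternatives. Its log2 fold change was -0.14 (adjusted p = 0.252 in limma) without the length and GC trend and -0.31 (adjusted p = 0.0947) without HCT116-CD276KO replicates 2 and 3. The omission of any of HCT116-WT replicates 1, 3, 4 and 5 or HCT116-CD276KO replicates 2, 3 and 4 also ended the call, with adjusted p-values of up to 0.0852 in limma.

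The R-spondin receptors oppose RNF43 and ZNRF3 at the cell surface. LGR5 (ENSG00000139292, chromosome 12, 71439798 to 71586310, plus strand), a marker of intestinal stem cells, was listed at 0 TPM in all 5 HCT116-WT libraries while HCT116-CD276KO replicates 1 to 5 had 0.01, 0, 0.01, 0 and 0.17 TPM. LGR4, its relative, was expressed, at 3.74 TPM in HCT116-WT and 2.77 TPM in HCT116-CD276KO cells (log2 fold change -0.33, adjusted p = 0.195 in limma, and -0.18 without HCT116-CD276KO replicates 2 and 3). The stem cell transcription factor ASCL2 (ENSG00000183734, chromosome 11, 2268498 to 2270588, minus strand) was listed at 0 TPM in 9 libraries and at 0.02 TPM in HCT116-WT replicate 5. These levels do not allow a comparison.

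AXIN2 and NKD1 are feedback genes inside the cell. AXIN2 (ENSG00000168646, chromosome 17, 65528563 to 65561648, minus strand), a scaffold of the destruction complex often used as a readout of the pathway, was measured at 5.11, 4.95, 4.37, 4.71 and 4.21 TPM in HCT116-WT replicates 1 to 5 while HCT116-CD276KO replicates 1 to 5 had 4.77, 5.25, 4.16, 5.38 and 5.37 TPM. The ranges overlapped, with the lowest library in the HCT116-CD276KO group and the 3 highest there as well. The mean was 4.67 ± 0.379 and 4.99 ± 0.525 TPM (SD, n = 5 each), with a log2 fold change of 0.08 and a 95% interval of -0.12 to 0.27 (adjusted p = 0.632 in limma). AXIN2 alone of the 7 genes had a mean above that of HCT116-WT, and its log2 fold change stayed above 0 under all 18 alternatives in which it was tested. Without the length and GC trend it was 0.22 with a 95% interval of 0.05 to 0.40, which excludes 0, and it did not pass after adjustment (adjusted p = 0.0988 in limma). An unnamed gene on the same strand that overlaps AXIN2 (ENSG00000266076) was at 0 to 0.7 TPM.

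NKD1 (ENSG00000140807, chromosome 16, 50548396 to 50649249, plus strand), whose product binds Dishevelled, was measured at 5.11, 4.65, 6.62, 4.26 and 5.25 TPM in HCT116-WT replicates 1 to 5 while HCT116-CD276KO replicates 1 to 5 had 4.45, 3.41, 3.05, 3.12 and 4.60 TPM. The groups overlapped through HCT116-WT replicate 4 and HCT116-CD276KO replicates 1 and 5. The mean was 5.18 ± 0.896 and 3.73 ± 0.744 TPM (SD, n = 5 each), and the log2 fold change of -0.39 did not pass (adjusted p = 0.118 in limma; exact permutation p = 0.0317 before adjustment). NKD1 has the longest transcript of the 10 genes, with 17039 bases, and its log2 fold change was -0.11 without the length and GC trend and -0.29 without HCT116-CD276KO replicates 2 and 3.

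Of the DNA-binding partners of β-catenin, TCF7 was expressed and LEF1 was not. TCF7 (ENSG00000081059, chromosome 5, 134114681 to 134151865, plus strand) was measured at 19.15, 19.06, 17.62, 16.36 and 17.68 TPM in HCT116-WT replicates 1 to 5 while HCT116-CD276KO replicates 1 to 5 had 14.52, 12.41, 9.76, 16.46 and 15.32 TPM. HCT116-CD276KO replicate 4 exceeded HCT116-WT replicate 4, and the other HCT116-CD276KO libraries lay below all of HCT116-WT. The mean was 18.0 ± 1.16 and 13.7 ± 2.65 TPM (SD, n = 5 each), and the log2 fold change of -0.39 did not pass (adjusted p = 0.0972 in limma; exact permutation p = 0.0159 before adjustment). Without HCT116-CD276KO replicates 2 and 3, its lowest libraries, it was -0.21. SKP1, which overlaps TCF7 on the opposite strand, was far more abundant, at 397 TPM in HCT116-WT and 421 TPM in HCT116-CD276KO cells (adjusted p = 0.497 in limma). The libraries were strand-specific, but the sources used here do not state the strand setting of the counting. LEF1 (ENSG00000138795, chromosome 4, 108047545 to 108168956, minus strand) was listed at 0 TPM in 9 libraries and at 0.08 TPM in HCT116-CD276KO replicate 1.

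MYC (ENSG00000136997, chromosome 8, 127735434 to 127742951, plus strand), a transcription factor of cell growth and a classical target of β-catenin, was measured at 246.57, 237.83, 293.02, 247.02 and 240.33 TPM in HCT116-WT replicates 1 to 5 while HCT116-CD276KO replicates 1 to 5 had 237.89, 262.27, 211.57, 241.66 and 243.18 TPM. Both the highest value (HCT116-WT) and the lowest (HCT116-CD276KO) occurred in replicate 3. The mean was 253 ± 22.7 and 239 ± 18.2 TPM (SD, n = 5 each), with a log2 fold change of -0.08 and a 95% interval of -0.24 to 0.08 (adjusted p = 0.539 in limma). The sign turned with median-of-ratios scaling (0.02) and without the length and GC trend (0.05), and neither passed.

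By mean level over the 10 libraries the order was DKK1, MYC, RNF43, TCF7, ZNRF3, AXIN2, NKD1 and then LGR5, LEF1 and ASCL2. DKK1 and MYC did not overlap in either group, and between MYC and RNF43 the level dropped from 246 to 17.9 TPM. RNF43 and TCF7 overlapped in HCT116-CD276KO cells and not in HCT116-WT cells, and so did ZNRF3 and AXIN2. AXIN2 and NKD1 overlapped in both groups, so their order is not separated by the spread.

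**Figure D2:**
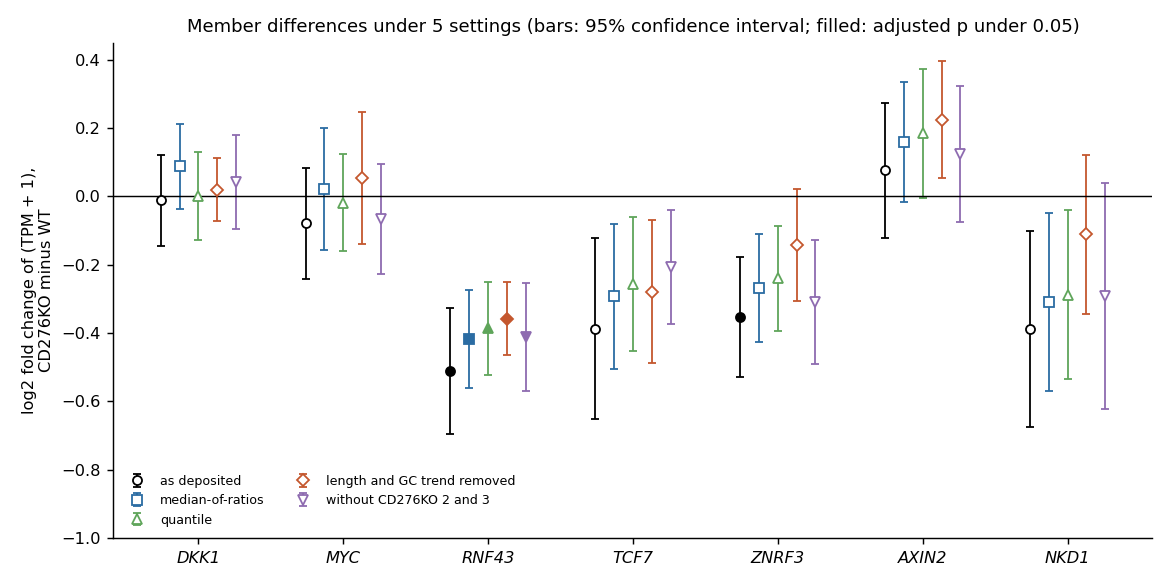
Log2 fold change (vertical axis, HCT116-CD276KO minus HCT116-WT) of the 7 tested genes under 5 settings, with 95% intervals and with filled symbols where the adjusted p was under 0.05. RNF43 is filled under all 5 settings, ZNRF3 only with the TPM as deposited, and the DKK1 intervals all include 0.

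A scaling shared by all genes of a library cancels in the ratio of 2 genes. The 6 other expressed genes were therefore set against DKK1 within each library, a comparison chosen after the values were seen. The log2 ratio of RNF43 to DKK1 was -4.07 ± 0.103 in HCT116-WT and -4.60 ± 0.125 in HCT116-CD276KO cells (SD, n = 5 each). Every HCT116-CD276KO library had a lower ratio than every HCT116-WT library, with a difference of -0.53 between the means. The mean ratio to DKK1 differed by -0.41 for ZNRF3, again without overlap, by -0.47 for NKD1 and by -0.40 for TCF7, both with overlap, and by 0.10 and -0.07 for AXIN2 and MYC. As DKK1 had nearly the same mean in both groups, these ratios repeat each gene's own difference and are given as a description, with no test. A trend with transcript length remains in them.

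**Figure D3:**
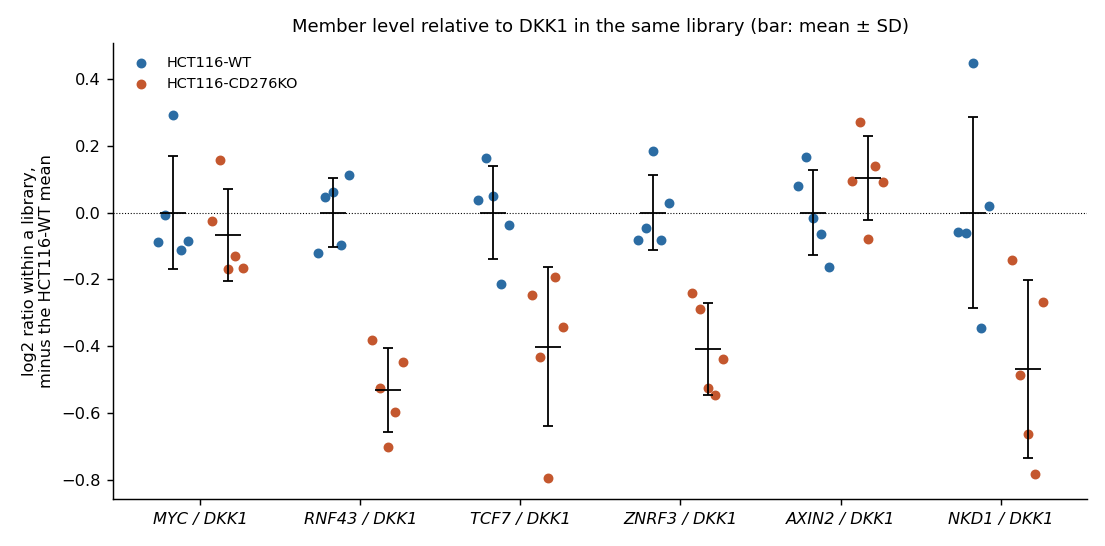
Log2 ratio of each gene's TPM to that of DKK1 in the same library, drawn as the difference from the HCT116-WT mean (vertical axis), with 1 point per library. The HCT116-CD276KO points for RNF43 and ZNRF3 lie below all HCT116-WT points, while those for AXIN2 and MYC overlap with HCT116-WT.

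The rest of the pathway was read from 7 lists by role with 117 genes, chosen with earlier results of these data known, which also hold the 10 genes. 73 had a mean of at least 1 TPM, and 11 of these passed, all lower in HCT116-CD276KO cells, beside 4.09% of all genes tested. 13 of the 73 did not overlap between the groups, all lower, beside 6.19% of all genes. 63 of 73 had a log2 fold change below 0 and the median was -0.19, beside 68.1% and -0.09 for all genes. With median-of-ratios factors 50 of 73 were below 0 with a median of -0.10, beside 49.1% and 0.0037 for all genes, and with quantile normalization 50 of 73 with a median of -0.09, beside 48.5% and 0.0073. Without HCT116-CD276KO replicates 2 and 3 the count was 48 of 73 and the median -0.08, beside 58.3% and -0.03. After the length and GC trend was removed, 47 of 73 were below 0 with a median of -0.04, beside 49.4% and 0.0025, and 15 passed, 13 lower and 2 higher, beside 5.62% lower and 3.93% higher of all genes. FZD3, a receptor, and JUN, a transcription factor, were the 2 higher genes there, with log2 fold changes of 0.41 and 0.28, and they did not pass with the TPM as deposited.

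**Figure D4:**
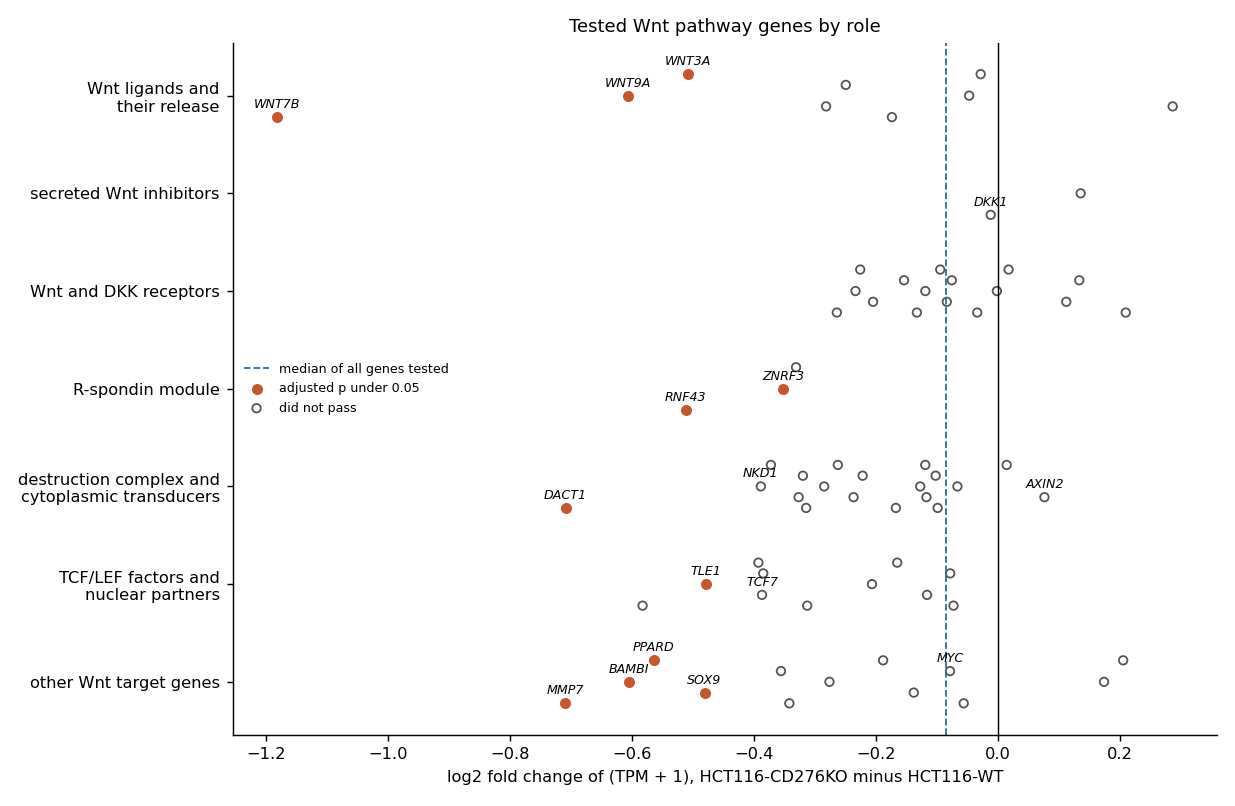
Log2 fold change (horizontal axis) of the 73 tested pathway genes by role, 1 symbol per gene, filled where the adjusted p was under 0.05, with the median of all genes tested as a dashed line. The 11 filled symbols lie left of that line, among the ligands, the R-spondin module, the cytoplasmic and nuclear factors and the other targets.

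The largest difference among the 73 genes tested was that of a Wnt ligand. WNT7B (ENSG00000188064) was measured at 6.65, 6.36, 5.87, 5.93 and 5.85 TPM in HCT116-WT replicates 1 to 5 while HCT116-CD276KO replicates 1 to 5 had 2.95, 1.97, 1.49, 2.01 and 2.47 TPM. It fell to 35.5% of the HCT116-WT mean (log2 fold change -1.18, SE 0.12, adjusted p = 0.00014 in limma). On TPM + 1, WNT7B was the only pathway gene that passed with a 2-fold change. By the ratio of mean TPM, MMP7 (43.5% of the HCT116-WT mean) and DACT1 (49.8%), both given below, also fell by more than 2-fold. WNT9A fell from 2.70 ± 0.216 to 1.43 ± 0.131 TPM (adjusted p = 0.00303 in limma), and WNT3A from 1.87 ± 0.234 to 1.01 ± 0.114 TPM (adjusted p = 0.0154). The most abundant ligand, WNT16, had 94.7 and 84.0 TPM and did not pass (adjusted p = 0.225 in limma), nor did WNT10B with 10.9 and 8.73 TPM (adjusted p = 0.139). WLS, which carries Wnt proteins to the cell surface, had 53.5 and 52.5 TPM (adjusted p = 0.874 in limma). In all, 3 of the 9 ligand and release genes tested passed, all lower, beside 4.09% of all genes tested that passed as lower. The 12 others of this list lay under the filter.

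Among 13 secreted inhibitors, DKK1 and NOTUM alone had a mean of at least 1 TPM. NOTUM, an enzyme that inactivates Wnt proteins, had 5.00 TPM in HCT116-WT and 5.58 TPM in HCT116-CD276KO cells (log2 fold change 0.14, adjusted p = 0.375 in limma). None of the 16 receptor genes tested passed, with 12 below 0 beside 68.1% of all genes, and the most abundant were RYK, PTK7 and CKAP4. CKAP4, a receptor reported for DKK1, had 46.6 and 40.2 TPM and did not pass (log2 fold change -0.20, adjusted p = 0.0707 in limma). Its groups did not overlap, beside 6.19% of all genes tested in the lower direction. The log2 fold change was -0.10 (adjusted p = 0.287 in limma) without the length and GC trend and -0.22 (adjusted p = 0.121) without HCT116-CD276KO replicates 2 and 3.

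Of 19 genes tested for the destruction complex and the cytoplasmic transducers, 1 passed, beside 4.09% of all genes tested that passed as lower. DACT1, which binds Dishevelled, fell from 3.48 ± 0.530 to 1.73 ± 0.228 TPM (adjusted p = 0.00347 in limma). CTNNB1 itself had 262 TPM in HCT116-WT and 246 TPM in HCT116-CD276KO cells (log2 fold change -0.10, adjusted p = 0.477), and CSNK1A1 and CSNK1D, casein kinases, did not pass. Of 11 TCF/LEF factors and nuclear partners, TLE1, a co-repressor, fell from 15.0 ± 1.23 to 10.5 ± 0.908 TPM (adjusted p = 0.00608 in limma). All 11 were below 0 with a median of -0.31, beside 68.1% and -0.09 for all genes. With median-of-ratios factors 9 were below 0 (median -0.22), beside 49.1% of all genes, and with quantile normalization 8 (median -0.20), beside 48.5%. Without the length and GC trend 10 were below 0 (median -0.08), beside 49.4% of all genes. Without HCT116-CD276KO replicates 2 and 3 the count was 9 (median -0.15), beside 58.3%. TCF7L2, the most abundant TCF gene, had 72.8 and 55.5 TPM (adjusted p = 0.131 in limma). BCL9L had 43.9 and 30.4 TPM (log2 fold change -0.58, adjusted p = 0.140) and CHD8 28.1 and 22.5 TPM (-0.31, adjusted p = 0.143). Without HCT116-CD276KO replicates 2 and 3 these log2 fold changes were -0.22 and -0.15, and that of TCF7L2 moved from -0.39 to -0.22.

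Of 13 other target genes tested, MYC among them, 4 passed, all lower, beside 4.09% of all genes tested that passed as lower. SOX9, a transcription factor of crypt progenitors, fell from 53.3 ± 2.06 to 38.2 ± 5.29 TPM (adjusted p = 0.0095 in limma). PPARD, a nuclear receptor, fell from 18.3 ± 0.687 to 12.1 ± 1.85 TPM (adjusted p = 0.00688). BAMBI, a pseudoreceptor of the TGF-β family, fell from 3.71 ± 0.123 to 2.10 ± 0.218 TPM (adjusted p = 0.00173), and MMP7, a matrix metalloproteinase, from 2.25 ± 0.395 to 0.976 ± 0.119 TPM (adjusted p = 0.00411). The HCT116-CD276KO mean of MMP7 lay under 1 TPM, so that MMP7 met the filter only through the HCT116-WT libraries. This limits its place in the count of 4 here and of 11 above. The most abundant of the list, CCND1 and CD44, had means of 573 and 457 TPM and of 436 and 343 TPM and did not pass (adjusted p = 0.128 and 0.0906 in limma). CD44 did not overlap between the groups and passed under 1 of 19 alternatives, without the length and GC trend (log2 fold change -0.18, adjusted p = 0.0214 in limma). CCND1 also passed under 1 of 19, without HCT116-CD276KO replicate 5 (adjusted p = 0.047 in limma). The log2 fold change of CD44 moved from -0.36 to -0.18 without HCT116-CD276KO replicates 2 and 3 (adjusted p = 0.252 in limma). That of CCND1 moved from -0.34 to -0.19 (adjusted p = 0.394 in limma). Without HCT116-CD276KO replicates 2 and 3, 10 of the 11 pathway calls were kept and ZNRF3 was lost.

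**Figure D5:**
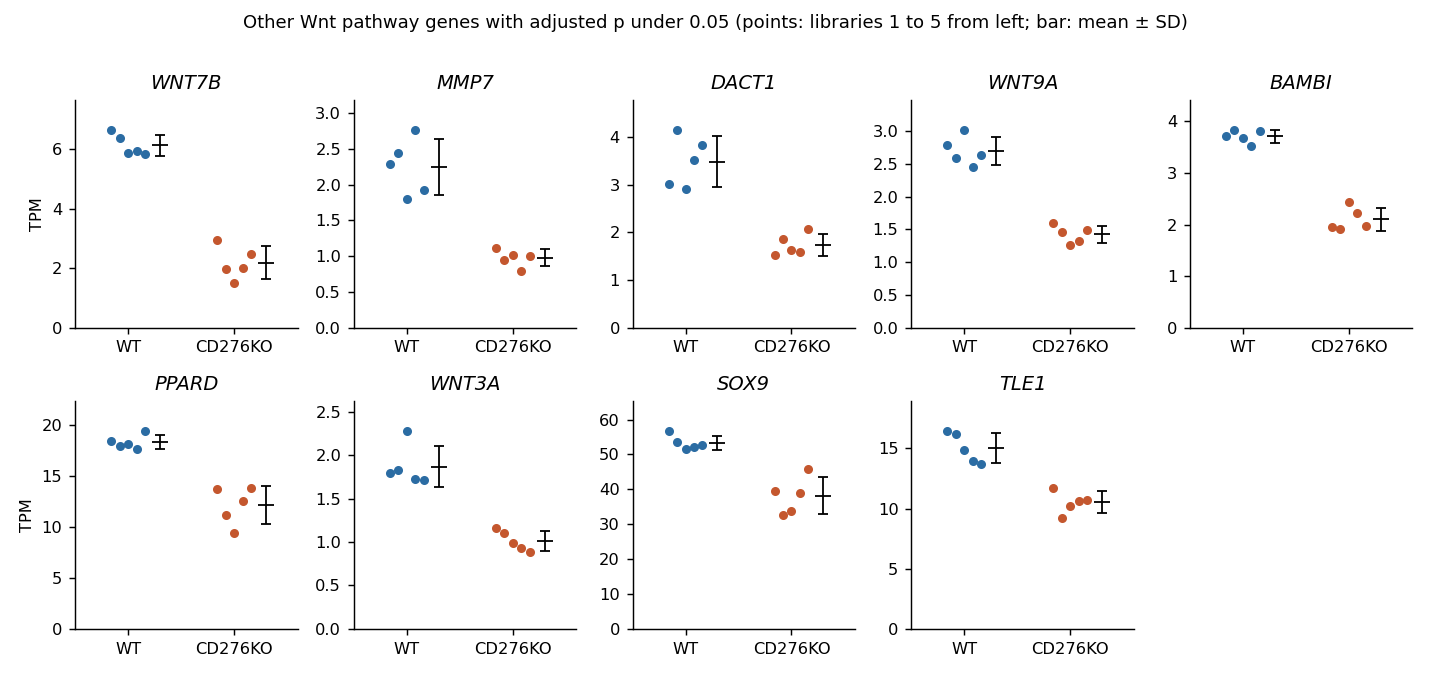
Level in TPM (vertical axes, starting at 0) of the 9 further pathway genes that passed, in the 5 HCT116-WT and 5 HCT116-CD276KO libraries, 1 point per library with the mean and SD. In each panel every HCT116-CD276KO point lies below every HCT116-WT point, with WNT7B at 1.49 to 2.95 against 5.85 to 6.65 TPM.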

How the data were processed

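RNA of 5 HCT116-WT and 5 HCT116-CD276KO cultures was sequenced from strand-specific polyA libraries as single reads. According to the authors and the submitters' processing notes, reads were mapped to GRCh38 with STAR 2.5.2b and genes quantified with RSEM 1.3.0 and featureCounts 1.5.1. The authors deposited TPM with 2 decimals, and which program gave them is not given in the sources used here. TPM are scaled to transcript length and a fixed total, and depth is not kept. The authors' own limma/voom comparison of counts was not analysed here. Groups came from the sample titles.

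Here log2(TPM + 1) of the 13581 genes whose mean reached 1 TPM was compared in limma 3.58.1 (R 4.3.3; linear model, empirical Bayes with trend, Benjamini-Hochberg adjustment), with two-sided exact permutation tests of 5 against 5 for single genes. The fit was tested on simulated data. The genes named were CD276, the 10 genes, pathway genes that passed, up to 3 genes of the highest mean per pathway list, the 5 most correlated with DKK1 and the cell type markers; LRP5, LRP6, KREMEN1, KREMEN2, FZD3 and JUN were named after their values were seen. The members and lists were chosen with earlier results of these data known.

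Alternatives were a pseudocount of 0.1, no filter, a mean of at least 5 TPM, median-of-ratios and quantile scaling, removal of each library's trend with transcript length and GC content (local regression, span 0.3, 13472 genes), the replicate number as a block, robust empirical Bayes, omission of each library, the log2 ratio of mean TPM and, chosen after seeing the data, omission of HCT116-CD276KO replicates 2 and 3. Positions are from GENCODE 44 on hg38, newer than the annotation used by the authors. Tables used Python 3.11.15 with pandas 2.3.3 and scipy 1.17.1.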

Additional observations from a re-analysis of the deposited data

Results flagged for a closer look

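Among 37 groups of 5 libraries checked for a value apart from the others by Dixon's test, 6 were past the limit of 0.71, where chance gives about 1 in 20. RNF43 in HCT116-WT replicate 5 was at 23.05 TPM, above the 20.16 to 20.90 TPM of the other 4. MYC in HCT116-WT replicate 3 was at 293.02 TPM, where the next highest was 247.02 TPM. WNT3A in HCT116-WT replicate 3 was at 2.28 TPM, where the next highest was 1.83 TPM. The other 3 were genes at or near 0, with LGR5 at 0.17 TPM in HCT116-CD276KO replicate 5, LEF1 at 0.08 TPM in HCT116-CD276KO replicate 1 and ASCL2 at 0.02 TPM in HCT116-WT replicate 5. The cause of these values was not tested.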

How the results depend on the processing

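CD276 and RNF43 kept their direction and passed under all 19 alternatives. The number of the 10 genes that passed was 2 and became 1 (RNF43) with no filter, with a mean of at least 5 TPM, with median-of-ratios or quantile scaling, without the length and GC trend, with the replicate block and without HCT116-CD276KO replicates 2 and 3, and was 1 to 2 with single libraries left out. The 11 pathway calls became 4 with a mean of at least 5 TPM, where 56 genes were tested: of the 7 lost calls 6 were of genes under this mean, and ZNRF3 had an adjusted p of 0.0557 in limma. With single libraries left out they were 10 to 12. Over all genes, 662 calls became 378 with the replicate block, 1287 without the length and GC trend and 339 without HCT116-CD276KO replicates 2 and 3. They were 343 to 421 without any of HCT116-WT replicates 1, 2, 4 and 5 or HCT116-CD276KO replicates 3 and 4, and 462 to 857 without any of the others. The replicate block left 9 pathway calls, without WNT3A (adjusted p = 0.0693 in limma) and ZNRF3 (0.0996), and 3 of the 5 epithelial marker calls, without EPCAM (0.0799) and KRT19 (0.101). Same-numbered libraries correlated at -0.181 to 0.119 in their deviations from the group means, so the numbers were not taken to pair the samples.

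DKK1 turned to 0.089 (median-of-ratios), 0.0012 (quantile), 0.020 (length and GC) and 0.041 (without HCT116-CD276KO replicates 2 and 3), with -0.043 to 0.0099 when single libraries were left out. MYC turned to 0.022 and 0.054 with median-of-ratios and the length and GC removal. WLS turned to 0.071, 0.065 and 0.061 with median-of-ratios, quantile and length and GC, to 0.071 without HCT116-CD276KO replicates 2 and 3, and ranged from -0.081 to 0.030 with single libraries left out. CSNK1D turned to 0.033, 0.0039 and 0.055 with the same 3 settings. CTNNB1 turned to 0.0015 with median-of-ratios, 0.027 with length and GC and 0.0094 without HCT116-CD276KO replicates 2 and 3. PTK7 turned to 0.014 and CSNK1A1 to 0.058 with length and GC, and RYK to 0.020 without HCT116-CD276KO replicates 2 and 3. None of these 8 genes passed under any setting tried, and the cause was not tested. TPM hold no depth, so counting error could not be given.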
